A study of Mus musculus with 95 samples.

Results

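Livers of mice given amiodarone at 60 mg/kg for 11 days (AMD 60, 5 arrays) were compared with livers of mice given the PBS vehicle for 11 days (5 arrays). The 10 arrays were taken by their titles from the 95 of the series, and all 16464 genes with a symbol were followed. The mice were 10-week-old male C57BL/6 animals of 21 to 27 g without any engineered allele named in the labels, dosed by oral gavage. Total RNA came from the middle of the left lateral lobe and was hybridised to Affymetrix expression arrays, 1 per sample. Further groups were used only to place these results: amiodarone at 20 mg/kg (5 arrays) and 6.7 mg/kg (5) on day 11, amiodarone at 60 mg/kg on day 4 (4) and day 1 (4) with PBS on those days (4 each), valproic acid at 500 mg/kg on day 11 (VPA 500, 5) and the vehicle of the tetracycline groups on day 11, water with ascorbic acid (5). Each array is named by the sample number in its title. The labels do not say that each sample was a separate mouse, so the p-values measure the spread between samples.

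Amiodarone is an antiarrhythmic drug, rich in iodine, whose molecule is both cationic and amphiphilic. It is known for thyroid and lung toxicity, for phospholipid storage in lysosomes, for slowing mitochondrial fatty acid oxidation and for fatty liver, which is the injury the series was set up to study. PPARA is the nuclear receptor that fatty acids and their derivatives bind in the liver. It switches on genes of fatty acid uptake, omega-hydroxylation, peroxisomal and mitochondrial oxidation and peroxisome growth.

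Values are log2 levels as deposited, and a difference of 1 is a doubling. A gene was called when limma's Benjamini-Hochberg adjusted p over all 16464 genes was under 0.05. After 11 days of amiodarone at 60 mg/kg 1161 genes were called (7.05%), 698 of them higher (4.24%) and 463 lower (2.81%). Most shifts were small: 873 of the called genes differed by less than 1.5-fold, and 84 (0.51%) by over 2-fold, 65 higher and 19 lower. The median difference was 0.44 among genes called higher, -0.37 among genes called lower and -0.01 over all genes. In 783 called genes no AMD 60 array overlapped a PBS array, whereas 378 called genes had overlapping groups. Without overlap lay 6.41% of all genes, 3.64% higher and 2.76% lower. The array medians ran from 3.08 to 3.13 in these 10 arrays, and pairs of them correlated at 0.987 to 0.996 over genes. Of the 1161 calls, 753 were also made against the tetracycline vehicle, against which 7.92% of genes were called, 4.09% higher and 3.83% lower. That vehicle itself differed from PBS at no gene by limma. Of the 16464 genes, 1407 had an unadjusted p under 0.05, well above what that cutoff alone would pass by chance.

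**Figure D1:**
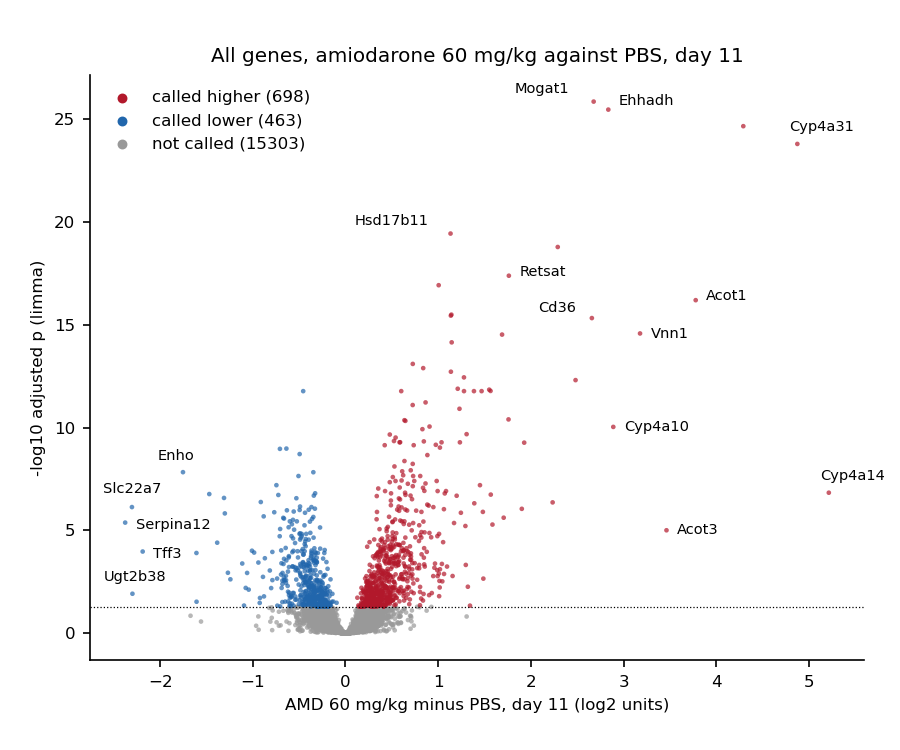
Difference between AMD 60 and PBS on day 11 (x axis, log2 units) against -log10 of the adjusted p from limma (y axis), 1 point per gene. Of 16464 genes, 698 were called higher (red) and 463 lower (blue), and the labelled genes are described in the text.

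The omega-hydroxylases of the Cyp4a subfamily, which oxidise the far end of fatty acids and are classic PPARA targets in rodents, held the largest rises. Cyp4a14 had levels of 12.50, 12.73, 12.58, 12.64 and 12.69 in AMD 60 livers, against 8.05, 6.52, 8.65, 6.83 and 7.03 in PBS livers. The AMD 60 arrays lay within 0.3 of each other, while the PBS arrays spread over more than 2 units. The difference was 5.21 ± 0.75 (SE), or 37.1-fold (adjusted p = 1.5e-07). Cyp4a31 stood at 10.48, 10.87, 10.70, 10.56 and 10.28 in AMD 60 livers and at 6.05, 5.58, 5.79, 5.28 and 5.81 in PBS livers, a rise of 4.88 ± 0.29 (29.3-fold, adjusted p = 1.7e-24). Cyp4a10 was bright in both groups, at 12.58 ± 0.09 in AMD 60 livers and 9.69 ± 0.28 in PBS livers (SD, n = 5 each), and rose by 2.89 ± 0.33 (7.41-fold). Cyp4a10 and Cyp4a31 are near-identical copies, and whether their probes separate them was not tested.

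The rest of the Cyp4 family did not follow. Cyp4f14, which hydroxylates leukotriene B4 in the mouse, fell by 0.75 to 8.28 ± 0.17 in AMD 60 livers, against 9.03 ± 0.14 in PBS livers (adjusted p = 6.3e-08). Cyp4v3 fell by 0.57 and Cyp4f13 by 0.36, whereas Cyp4f15 rose by 0.31. The call of Cyp4f13 was lost without AMD 60 array 062 or PBS array 073, and that of Cyp4f15 without PBS array 032. Cyp4a12a, the male-typical member, differed by 0.50 ± 0.28 (adjusted p = 0.37). In all, 4 of 12 measured Cyp4 genes rose and 3 fell, and the median over the 12 was 0.03.

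Acyl-CoA thioesterases, which release free fatty acids from coenzyme A, rose in 7 of 13 cases with none lower (median 0.49). Acot1, the cytosolic enzyme, had 9.11, 9.54, 9.34, 9.16 and 9.24 in AMD 60 livers, against 5.70, 5.41, 5.83, 5.12 and 5.43 in PBS livers. That is a rise of 3.78 ± 0.31, or 13.7-fold (adjusted p = 6.5e-17), with more than 3 units between the groups. Acot2, its mitochondrial neighbour, rose by 2.29 ± 0.16, with levels of 6.78 ± 0.40 in AMD 60 livers and 4.49 ± 0.21 in PBS livers. Acot1 and Acot2 share most of their sequence, and cross-hybridisation between them was not tested. The peroxisomal Acot8 rose by 1.14 ± 0.11 without overlap. Acot3 (3.46 ± 0.59) and Acot4 (1.59 ± 0.26) rose too, but against the tetracycline vehicle they differed by 1.68 (adjusted p = 0.066) and 0.77 (adjusted p = 0.057), and only 4 of the 13 were then called.

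Enzymes that shorten fatty acids inside peroxisomes rose in 13 of 22 cases and fell in 1 (median 0.44), and 8 were not called. Ehhadh, the bifunctional enzyme of the L-specific pathway, had 12.04, 12.54, 11.99, 12.21 and 12.19 in AMD 60 livers, against 9.14, 9.27, 9.61, 9.40 and 9.38 in PBS livers. The rise of 2.84 ± 0.16 (7.14-fold, adjusted p = 3.6e-26) was among the 10 with the smallest p-values. Ech1, a dienoyl-CoA isomerase, rose by 1.01 ± 0.08 to 11.78 ± 0.13 in AMD 60 livers, against 10.78 ± 0.08 in PBS livers. The thiolases Acaa1a (0.97) and Acaa1b (0.91), the membrane carrier Abcd3 (0.59) and Hsd17b4 (0.53), the D-specific bifunctional enzyme, all rose without overlap. Crat, which moves short acyl groups onto carnitine, rose by 1.39 ± 0.14. Nudt7, a peroxisomal coenzyme A hydrolase, was the member that fell (-0.38, adjusted p = 0.029), a call lost without any 1 of 6 arrays. Abcd2, a further peroxisomal carrier, rose by 1.49 against PBS and differed by 0.53 from the tetracycline vehicle (adjusted p = 0.48).

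**Figure D2:**
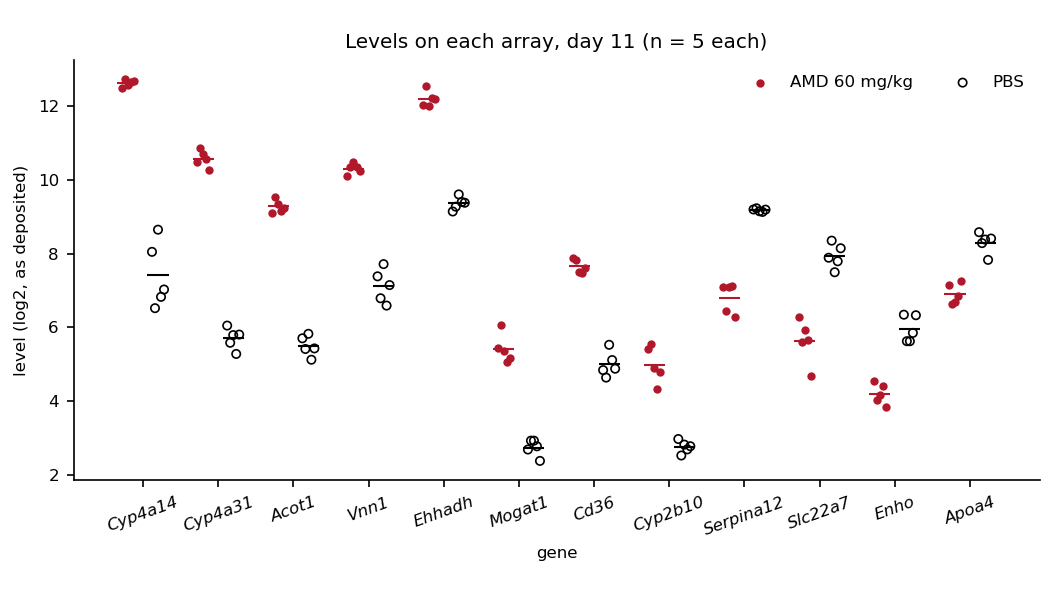
Deposited log2 level (y axis) of 12 named genes on each array, with AMD 60 livers (filled circles, left of each pair) and PBS livers (open circles, right), n = 5 each; the bars are group means. In each of these 12 genes every AMD 60 array lies to 1 side of every PBS array.

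Peroxins, which build the organelle, rose in 6 of 15 cases with none lower (median 0.16). Pex11a, which drives peroxisome division, had 10.44, 10.45, 10.34, 10.46 and 10.76 in AMD 60 livers, against 9.06, 8.92, 9.16, 8.67 and 8.87 in PBS livers. It rose by 1.55 ± 0.16 (2.93-fold, adjusted p = 1.4e-12). The membrane protein importers Pex19 (0.54), Pex3 (0.49) and Pex16 (0.46) rose by less, also without overlap.

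Mitochondrial fatty acid oxidation held the widest share of calls among the lipid lists: 17 of 24 genes rose and 1 fell (median 0.45). The largest rises were of auxiliary enzymes for unsaturated fatty acids. Eci1, an enoyl-CoA isomerase, had 10.60, 11.04, 11.00, 10.91 and 10.84 in AMD 60 livers, against 9.61, 9.66, 9.88, 9.75 and 9.78 in PBS livers (1.14 ± 0.10, adjusted p = 3.3e-16). Decr1, the dienoyl-CoA reductase, rose by 1.14 ± 0.10, with 9.06 ± 0.09 in AMD 60 livers and 7.92 ± 0.06 in PBS livers. The carnitine-acylcarnitine carrier Slc25a20 (0.83), carnitine acyltransferase Cpt2 (0.73), the dehydrogenases Acadl (0.73) and Acadm (0.72) and the trifunctional subunit Hadha (0.72) rose together. Cpt1a, the malonyl-CoA-sensitive gate to the mitochondrion, had 9.23 ± 0.16 in AMD 60 livers and 9.14 ± 0.14 in PBS livers, a difference of 0.09 ± 0.11 (adjusted p = 0.76). Acadsb, which acts on branched chains, fell by 0.26, a call lost without AMD 60 array 012, 031 or 033. Acad10 rose by 1.10 ± 0.24 against PBS, but by 0.62 (adjusted p = 0.098) against the tetracycline vehicle it was not called.

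Other PPARA targets rose in 8 of 15 cases with none lower (median 0.34). Vnn1, the pantetheinase, had 10.11, 10.35, 10.48, 10.35 and 10.23 in AMD 60 livers, against 7.38, 6.79, 7.71, 6.59 and 7.15 in PBS livers (3.18 ± 0.28, 9.05-fold, adjusted p = 2.7e-15). Retsat, a retinol saturase, stood at 11.34 ± 0.06 in AMD 60 livers and 9.58 ± 0.18 in PBS livers (1.76 ± 0.13). Pdk4, the kinase that shuts pyruvate dehydrogenase, had 4.56, 4.26, 4.45, 4.34 and 4.04 in AMD 60 livers, against 2.32, 2.30, 3.49, 2.30 and 2.43 in PBS livers. It rose by 1.76 ± 0.19, and its PBS mean lay below the array median, near the lower end of the scale. The deposited values carry no detection call, so whether genes this dim were above background in PBS livers was not tested, and no fold is given for them. Angptl4, an inhibitor of lipoprotein lipase, rose by 0.90 ± 0.25. Ppara itself differed by 0.23 ± 0.12 (adjusted p = 0.32). Fgf21, the fasting hormone, had 2.78 ± 0.17 in AMD 60 livers and 3.30 ± 0.89 in PBS livers (-0.52 ± 0.27, adjusted p = 0.31).

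Genes of fatty acid entry rose in 10 of 18 cases with none lower (median 0.28). Cd36, the fatty acid translocase, had 7.87, 7.82, 7.51, 7.48 and 7.61 in AMD 60 livers, against 4.84, 4.64, 5.53, 5.11 and 4.88 in PBS livers. The rise was 2.66 ± 0.22, or 6.31-fold (adjusted p = 4.8e-16). Lpl, lipoprotein lipase, which adult liver normally keeps low, rose by 1.45 ± 0.20 to 7.76 ± 0.12 in AMD 60 livers, against 6.31 ± 0.23 in PBS livers. The intracellular carrier Fabp2 rose by 0.81 ± 0.14, and Lipg, endothelial lipase, by 0.58 ± 0.14 with a PBS mean below the array median. Fabp1, the main carrier of liver, is near the top of the scale and rose by 0.20 ± 0.05 (adjusted p = 0.0097), a call lost when only the 10 arrays entered the fit.

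Fabp1 was the 1 gene called higher among 53 whose promoter window held the letters AGGNCANAGGNCA on either strand, the direct repeat spaced by 1 base that PPARA binds as a pair with RXR. The window spans 250 bases before to 50 after the start of each of 13162 genes in RefSeq (GRCm38.p6), and 0.403% of them held the motif. Of those 53 genes 5 were called lower and 47 were not called. Over all 13162 genes with a window 568 were called higher and 365 lower (2.77%). The share of rises among genes with the motif was not above that of all genes with a window, but it rested on 1 gene. So small a count cannot tell the shares apart, and binding of PPARA was not tested. The stretch of Fabp1 lies at chr6:71199792-71199844 on the plus strand, with the motif in capitals in reverse orientation 67 bases before the start.
Fabp1: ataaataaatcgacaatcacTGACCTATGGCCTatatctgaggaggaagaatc
The Cyp4a genes and Vnn1 had no window in the table.

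Lipid droplet genes rose in 9 of 20 cases, with 1 lower (median 0.27). Hsd17b11, a droplet-bound dehydrogenase, had 11.61, 11.73, 11.56, 11.62 and 11.46 in AMD 60 livers, against 10.38, 10.49, 10.38, 10.54 and 10.52 in PBS livers (1.13 ± 0.08, adjusted p = 3.8e-20). Plin2, the droplet coat protein of steatotic liver, rose by 0.88 ± 0.13 to 11.76 ± 0.13 in AMD 60 livers, against 10.88 ± 0.26 in PBS livers. Fitm1, which helps droplets bud (1.02), the monoglyceride lipase Mgll (0.80), and Plin5 (0.57), which ties droplets to mitochondria, rose without overlap. G0s2, the inhibitor of the lipase ATGL, differed by 1.34 ± 0.44 (adjusted p = 0.045), and the call was lost when any 1 of 9 arrays was left out and against the tetracycline vehicle. Cideb, which loads lipid onto VLDL, fell by 0.21, a call lost without any 1 of 7 arrays, and that of Plin5 was lost without PBS array 073. Cidec, a droplet fusion protein known from obese liver, was below the array median in both groups (0.24 ± 0.11, adjusted p = 0.21).

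In triglyceride assembly 5 of 16 genes rose and 1 fell (median 0.13). Mogat1, a monoacylglycerol acyltransferase, had 5.44, 6.05, 5.36, 5.07 and 5.17 in AMD 60 livers, against 2.69, 2.93, 2.93, 2.78 and 2.38 in PBS livers. Its difference of 2.68 ± 0.14 (adjusted p = 1.5e-26) was among the smallest p-values of the comparison. Gpat3, a glycerol-phosphate acyltransferase, had 6.10, 5.19, 4.47, 5.04 and 5.86 in AMD 60 livers, against 3.05, 2.95, 2.75, 2.87 and 2.63 in PBS livers (2.48 ± 0.24). In both genes the PBS mean lay below the array median. Lpin2, a phosphatidate phosphatase, rose by 0.68 ± 0.15 and differed by 0.33 from the tetracycline vehicle (adjusted p = 0.23). Dgat2, the last step for newly made fatty acids, fell by 0.40 ± 0.08 (adjusted p = 0.00028).

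Fatty acid synthesis rose in 7 of 24 cases with none lower (median 0.09). Me1, malic enzyme, which supplies NADPH, had 10.11 ± 0.17 in AMD 60 livers and 8.94 ± 0.23 in PBS livers (1.17 ± 0.19, adjusted p = 4.3e-06). The acetyl-CoA synthetase Acss2 (0.99), the desaturase Scd1 (0.80 ± 0.17), the elongase Elovl5 (0.69) and the mitochondrial carboxylase Acacb (1.01 ± 0.29) rose too. Against the tetracycline vehicle 4 genes of the list were higher and 2 lower, and Scd1 (0.37, adjusted p = 0.20) and Acacb (0.81, adjusted p = 0.068) were not called. The call of Acacb was also lost without AMD 60 array 012 or PBS array 032. Fasn, fatty acid synthase, differed by 0.29 ± 0.28 (adjusted p = 0.67), with 9.40 ± 0.23 in AMD 60 livers and 9.11 ± 0.49 in PBS livers. Thrsp, a lipogenic gene that thyroid hormone drives, differed by -0.27 ± 0.27 (adjusted p = 0.69).

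Genes of cholesterol synthesis, its control and uptake had a median of 0.46, with 16 of 17 above 0, yet only 4 were called higher and none lower. They were the enzymes Pmvk (0.95 ± 0.22), Nsdhl (0.55) and Tm7sf2 (0.45), and Insig2 (0.55), a regulator that restrains the pathway and is not an enzyme of it. The call of Nsdhl was lost without PBS array 002 or 032, and that of Insig2 without AMD 60 array 031 or 033 or PBS array 073. Fitting only the 10 arrays called 8. Sqle, squalene epoxidase, ran from 7.81 to 8.12 in AMD 60 livers and from 7.15 to 8.36 in PBS livers (0.14 ± 0.24, adjusted p = 0.85).

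Lipoprotein genes held more falls than rises, with 10 of 23 lower and 1 higher (median -0.16). Apoa4, an apolipoprotein of chylomicrons and VLDL, had 7.15, 6.63, 6.68, 6.85 and 7.26 in AMD 60 livers, against 8.58, 8.28, 8.38, 7.83 and 8.41 in PBS livers (-1.38 ± 0.25, 2.61-fold lower, adjusted p = 3.9e-05). The remaining falls were small: Apon, Scarb1, the HDL receptor, and Apom each fell by 0.37. Pltp, which transfers phospholipid between lipoproteins, was the rise, with 8.18 ± 0.38 in AMD 60 livers and 6.26 ± 0.45 in PBS livers (1.93 ± 0.23, 3.81-fold). Apob differed by -0.19 ± 0.17 (adjusted p = 0.66) and Mttp, which loads lipid onto it, by 0.15 ± 0.07 (adjusted p = 0.18). Fitting only the 10 arrays called 6 lower.

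In bile acid synthesis 2 of 20 genes rose and 3 fell (median -0.07). Cyp39a1, the 24-hydroxycholesterol hydroxylase, had 4.55, 5.91, 5.69, 5.57 and 5.72 in AMD 60 livers, against 6.67, 6.51, 6.91, 6.96 and 6.96 in PBS livers (-1.31 ± 0.19, 2.48-fold lower). Array 012 was more than 1 unit below the other AMD 60 arrays. Cyp2c70, which makes the muricholic acids of the mouse, fell by 0.67 ± 0.11. Cyp8b1, the 12-alpha-hydroxylase of cholic acid, rose by 0.84 ± 0.23 (adjusted p = 0.012), a call lost without PBS array 073. Cyp7a1, the rate-limiting enzyme of the pathway, had 7.64 ± 0.59 in AMD 60 livers and 8.35 ± 0.35 in PBS livers (-0.70 ± 0.42, adjusted p = 0.40).

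Among 26 carriers of organic ions and bile acids 7 rose and 3 fell (median 0.13). Slc22a7, the organic anion transporter OAT2 of the sinusoidal membrane, had 6.29, 5.59, 5.93, 5.65 and 4.68 in AMD 60 livers, against 7.89, 8.35, 7.49, 7.79 and 8.14 in PBS livers. It fell by 2.30 ± 0.35 (4.94-fold lower, adjusted p = 7.3e-07). The efflux pumps Abcc3 (1.02 ± 0.12), Abcc4 (1.06 ± 0.16), Abcg2 (0.73) and Abcb4 (0.55), the phosphatidylcholine floppase of bile, rose without overlap. Slc22a5, the carnitine importer, rose by 0.84 ± 0.14 from a PBS mean below the array median. Abcb11, the bile salt export pump, fell by 0.25 ± 0.07, a call lost without PBS array 002 or 020.

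Drug-metabolizing P450 genes, with the receptors Nr1i2 (PXR) and Nr1i3 (CAR) that drive them, were split: 6 of 39 rose and 4 fell (median -0.03). Cyp2b10, the standard CAR target of the mouse, had 5.41, 5.55, 4.89, 4.32 and 4.79 in AMD 60 livers, against 2.97, 2.53, 2.82, 2.69 and 2.78 in PBS livers. The difference was 2.23 ± 0.33 (adjusted p = 4.3e-07), with a PBS mean below the array median. Cyp2c55 rose by 1.29 ± 0.22 and Cyp3a44, a female-typical member, by 0.68 ± 0.15. Cyp3a11, the main PXR target, was at 13.27 ± 0.02 in AMD 60 livers and 13.10 ± 0.06 in PBS livers, near the top of the scale (0.17 ± 0.04, adjusted p = 0.0061). Cyp2u1, a fatty acid hydroxylase, fell by 1.30 ± 0.20 to 4.94 ± 0.41 in AMD 60 livers, against 6.25 ± 0.48 in PBS livers.

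Glutathione transferases rose in 9 of 22 cases and fell in 1 (median 0.20). Gstt2 rose by 1.31 ± 0.15, Gstm3 by 1.30 ± 0.28 and Gstm4 by 1.23 ± 0.13, all without overlap. Gstt3 rose by 1.04 ± 0.25, but differed by 0.49 from the tetracycline vehicle (adjusted p = 0.30), against which only 4 of the list were higher. Gstp3 was the fall (-0.74 ± 0.18), with 5.82 ± 0.27 in AMD 60 livers and 6.56 ± 0.24 in PBS livers. Genes under the antioxidant factor NRF2 rose in 12 of 28 cases and fell in 3 (median 0.23). The largest of these rises was of Abcc4 (1.06), the efflux pump already counted among the carriers, which is not an antioxidant enzyme. Nqo1, the standard target of NRF2, had 5.21, 5.43, 5.11, 5.20 and 5.82 in AMD 60 livers, against 4.31, 4.36, 4.68, 4.54 and 3.83 in PBS livers (1.01 ± 0.23, adjusted p = 0.0012). Srxn1, sulfiredoxin (0.88), and Entpd5 (0.86) rose as well, while Gclm, the regulatory subunit of glutathione synthesis, fell by 0.23, a call lost without PBS array 032. Without that array or AMD 60 array 062 the falls among these NRF2 genes numbered 1.

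Conjugating enzymes rose in 1 of 26 cases and fell in 4 (median -0.14). Nnmt, which methylates nicotinamide, fell by 1.11 ± 0.23 to 8.46 ± 0.40 in AMD 60 livers, against 9.57 ± 0.22 in PBS livers. Ugp2, which makes UDP-glucose, fell by 0.45, and Ugdh, which turns it into UDP-glucuronic acid, rose by 0.40. Ugt2b38, a glucuronosyltransferase, spread widely, with 6.54, 6.95, 7.50, 7.95 and 5.50 in AMD 60 livers, against 9.32, 9.84, 9.20, 8.07 and 9.50 in PBS livers (-2.30 ± 0.64, adjusted p = 0.012). Its call was lost without AMD 60 array 062 and against the tetracycline vehicle (-0.88, adjusted p = 0.53).

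Thyroid genes bear on a drug whose iodine load and inhibition of deiodinases are known. Of 18 genes of thyroid hormone response and transport 3 rose and 2 fell (median -0.02). Dio1, the deiodinase of liver and itself a thyroid hormone target, had 9.82 ± 0.13 in AMD 60 livers and 10.10 ± 0.23 in PBS livers (-0.29 ± 0.22, adjusted p = 0.57). Serpina7, thyroxine-binding globulin, rose by 1.32 ± 0.34 to 8.47 ± 0.28 in AMD 60 livers, against 7.15 ± 0.51 in PBS livers. Against the tetracycline vehicle it differed by 0.61 (adjusted p = 0.34). Gpd2, the mitochondrial glycerol-phosphate dehydrogenase that thyroid hormone induces, rose by 0.43 ± 0.13, a call lost without AMD 60 array 031 or 033 or PBS array 020 or 073. Iyd, which recovers iodide from iodotyrosines, fell by 0.38 ± 0.06 (adjusted p = 3.7e-06). Ttr, transthyretin, a thyroxine carrier near the top of the scale, fell by 0.10 ± 0.03, a call lost without any 1 of 7 arrays.

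Lysosomal genes moved little and in both directions, 5 of 41 higher and 9 lower (median -0.06). Gm2a, the ganglioside activator, fell by 0.57 ± 0.11, with levels of 7.44 to 7.55 in AMD 60 livers and 8.00 to 8.19 in PBS livers. The cathepsin Ctsz fell by 0.44, Ctsf by 0.43 (a call lost without any 1 of 7 arrays) and the acid sphingomyelinase Smpd1 by 0.32, while acid glucosidase Gaa rose by 0.39. Fitting only the 10 arrays left 1 higher and 5 lower, leaving out PBS array 020 or 073 left 3 and 5, and leaving out AMD 60 array 012 or 062 or PBS array 002 left 2 higher. None of the 15 subunits of the lysosomal proton pump was called (median -0.09). Gpnmb, a marker of lysosomal stress in macrophages, was below the array median in both groups (0.20 ± 0.11, adjusted p = 0.40).

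Phospholipid and sphingolipid synthesis rose in 7 of 40 cases and fell in 2 (median 0.03). Gpcpd1, which splits glycerophosphocholine, rose by 0.74 ± 0.20, a call lost without PBS array 032. Lpcat3, which loads polyunsaturated fatty acids onto phosphatidylcholine, rose by 0.57 ± 0.12 and was not called against the tetracycline vehicle (0.26, adjusted p = 0.21). Chpt1, which adds choline in the last step of phosphatidylcholine synthesis, rose by 0.57 ± 0.11, and Pemt, which makes the same lipid by methylation, fell by 0.31 ± 0.08. Etnppl, which breaks down phosphoethanolamine, fell by 0.87 ± 0.18 to 8.28 ± 0.18 in AMD 60 livers, against 9.15 ± 0.36 in PBS livers.

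Chaperones and degradation factors of the endoplasmic reticulum were lower as a group. None of 37 rose, 19 fell, and all 37 differences were below 0 (median -0.32). The mean level of the list was 7.68 to 7.85 on AMD 60 arrays and 8.01 to 8.29 on PBS arrays, without overlap. Derl3, an inducible channel factor for misfolded proteins, had 3.38, 3.75, 3.28, 3.67 and 2.99 in AMD 60 livers, against 3.90, 5.69, 3.54, 4.42 and 5.74 in PBS livers. Its groups overlapped, and the fall of 1.24 ± 0.30 (adjusted p = 0.0024) was the largest of the list. Sdf2l1, a stress-induced partner of BiP, had 6.56, 6.66, 6.35, 6.85 and 6.18 in AMD 60 livers, against 7.20, 7.68, 7.11, 7.71 and 8.28 in PBS livers (-1.08 ± 0.28, 2.11-fold lower, adjusted p = 0.0062). Pdia6, a disulfide isomerase, had 9.23, 8.97, 9.02, 9.16 and 8.87 in AMD 60 livers, against 9.48, 9.77, 9.44, 9.56 and 9.87 in PBS livers (-0.57 ± 0.12). Dnajb11, a co-chaperone of BiP, fell by 0.66 ± 0.16, Calr, calreticulin, by 0.55 ± 0.12 and Xbp1, the transcription factor of the unfolded protein response, by 0.61 ± 0.12. Hspa5, which encodes BiP itself, had 9.34 ± 0.09 in AMD 60 livers and 9.82 ± 0.28 in PBS livers (-0.47 ± 0.15, adjusted p = 0.040), a call lost without any 1 of 6 arrays. Ddit3, the stress factor CHOP, differed by -0.18 ± 0.13 (adjusted p = 0.55).

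The calls in this group depended on which vehicle arrays served as the reference. Whether the vehicles themselves differ over this list was not tested. Against the tetracycline vehicle only 4 of the 37 were called lower, though 34 were still below 0 (median -0.18). Derl3 then differed by -0.39 (adjusted p = 0.56), Dnajb11 by -0.17 (adjusted p = 0.67), Sdf2l1 by -0.22 (adjusted p = 0.78), Pdia6 by -0.28 (adjusted p = 0.18) and Calr by -0.11 (adjusted p = 0.71). Derl2, a channel factor for misfolded proteins (-0.49 against PBS, -0.44 against the tetracycline vehicle), and Ppib, a cyclophilin (-0.40 and -0.29), were called lower against both. On day 4, against its own PBS arrays, 3 of the 37 were lower and none higher (median -0.12), where 2.2% of all genes were lower and 4.01% higher.

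The endoplasmic reticulum stress element, the letters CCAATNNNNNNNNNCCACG, was searched on both strands of the same promoter windows, because XBP1 and ATF6 are known to act through it. It was found in 19 of 13162 genes (0.144%), of which 7 were called lower, 1 higher and 11 not. Of all genes with a window 2.77% were called lower. All 7 lower genes, among them Derl3, Hspa5, Pdia6, Dnajc3 and Calr, encode folding or degradation factors of the endoplasmic reticulum. Their count therefore repeats the fall of that group, and whether the element itself went with a fall was not tested. Of the 28 endoplasmic reticulum genes with a window 9 held it. No gene of the 19 was called against the tetracycline vehicle. The element of 4 of the lower genes and of Acacb, the gene called higher, is in capitals below, read along each gene's own strand.
Hspa5: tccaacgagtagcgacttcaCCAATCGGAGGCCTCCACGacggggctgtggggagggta
Pdia6: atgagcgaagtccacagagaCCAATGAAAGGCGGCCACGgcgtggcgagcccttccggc
Dnajc3: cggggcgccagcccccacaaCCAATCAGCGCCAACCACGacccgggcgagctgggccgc
Calr: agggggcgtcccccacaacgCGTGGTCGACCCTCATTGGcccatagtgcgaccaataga
Acacb: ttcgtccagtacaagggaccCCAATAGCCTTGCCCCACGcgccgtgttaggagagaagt
Hspa5 is at chr2:34772005-34772063 (plus strand, element 65 bases before the start) and Pdia6 at chr12:17266471-17266529 (plus, 98). Dnajc3, a co-chaperone that fell by 0.46, is at chr14:118937807-118937865 (plus, 105). Calr is at chr8:84847055-84847113 (minus, 162, element reversed) and Acacb at chr5:114165411-114165469 (plus, 87). A match describes these letters only.

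Among 28 genes of the ATF4 stress response 2 rose and 4 fell (median -0.13). Trib3, a pseudokinase that ATF4 and PPARA both control, rose by 1.16 ± 0.27, with 5.51 to 5.84 in AMD 60 livers and 4.32 to 4.72 in PBS livers. Vldlr, the VLDL receptor, rose by 0.51 ± 0.08 but was below the array median in both groups. Psph, of serine synthesis, fell by 0.44 (a call lost without any 1 of 5 arrays), the partner factor Cebpg by 0.40 and Atf4 by 0.39 ± 0.10. Without PBS array 032 the list held 2 falls.

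Genes of the mitochondrial machinery were called in 1 direction. Of 24 chaperones, proteases and dynamics factors 9 rose, led by Clpx, a matrix unfoldase (0.72 ± 0.17), the prohibitin Phb (0.50) and the chaperone partners Hspe1 and Grpel2 (0.49 each, the call of Grpel2 lost without any 1 of 4 arrays). Of 47 mitochondrial ribosomal proteins 11 rose, led by Mrpl45 (0.65 ± 0.10), Mrps9 (0.35), Mrpl40 and Mrpl46 (0.31 each). Of 47 nuclear subunits of oxidative phosphorylation 9 rose, and the largest were of complex I, Ndufs1 at 0.24 ± 0.06, Ndufa12 and Ndufs7 at 0.23 and Ndufa5 at 0.22. None of these lists held a call lower, and their medians were 0.18, 0.12 and 0.10. The last count was 2 without AMD 60 array 031 or when only the 10 arrays were fitted, and 5 without AMD 60 array 039 or PBS array 002 or 032. The ribosomal count was 7 without AMD 60 array 031 or PBS array 002, and 6 when only the 10 arrays were fitted.

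Of 28 genes listed as secreted liver factors 13 fell, 2 rose and 13 were not called (median -0.46). The rises were Angptl4 and Retsat, both given above, of which Retsat is an enzyme, a retinol saturase. Serpina12 (vaspin), the largest fall of the comparison, had 7.09, 6.44, 7.08, 7.11 and 6.28 in AMD 60 livers, against 9.20, 9.23, 9.15, 9.13 and 9.19 in PBS livers. The PBS arrays were within 0.1 of each other, and the difference was -2.38 ± 0.39 (5.19-fold lower, adjusted p = 4.1e-06). Enho (adropin), a peptide of energy balance, had 4.55, 4.03, 4.16, 4.42 and 3.85 in AMD 60 livers, against 6.34, 5.63, 5.62, 5.85 and 6.33 in PBS livers (-1.75 ± 0.23, 3.37-fold lower). Inhba, the activin A subunit, fell by 1.06 ± 0.24.

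Some falls were not called without certain arrays or against the tetracycline vehicle. Tff3, a mucosal peptide, had 6.82, 4.66, 4.71, 4.76 and 5.05 in AMD 60 livers, against 7.31, 7.98, 6.27, 8.47 and 6.91 in PBS livers (-2.19 ± 0.42, adjusted p = 0.00011), with array 012 apart from its group. It differed by -0.53 from the tetracycline vehicle (adjusted p = 0.59). Angptl8, which insulin and feeding raise, had 6.90 ± 0.47 in AMD 60 livers and 8.51 ± 0.80 in PBS livers (-1.61 ± 0.49, adjusted p = 0.029), a call lost when any 1 of 8 arrays was left out. Of 34 growth hormone and sex-biased liver genes 3 rose and 5 fell (median -0.16), and 26 were not called. Differences in this list ran from -2.30 (Ugt2b38, given above) to 3.46 (Acot3, given above), so it moved in both directions. Among the falls, Igf1 fell by 0.32 ± 0.07, Igfals, which carries it in plasma, by 0.68 and Ghr, the growth hormone receptor, by 0.38. When only the 10 arrays were fitted 10 were lower, and against the tetracycline vehicle 3.

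Acute phase, complement and coagulation genes fell in 21 of 42 cases with none higher, and all 42 differences were below 0 (median -0.34). C8b of the complement attack complex had 9.69, 9.42, 9.74, 9.83 and 9.51 in AMD 60 livers, against 10.59, 10.60, 10.36, 10.43 and 10.79 in PBS livers (-0.91 ± 0.14, adjusted p = 4.2e-07). F11, coagulation factor XI, fell by 0.64, Lect2, a chemotactic hepatokine, by 0.60, Saa4, the constitutive serum amyloid A, by 0.59 and C9 by 0.55. The call of Saa4 was lost without AMD 60 array 031 or PBS array 090 and against the tetracycline vehicle. Cfi, complement factor I, fell by 0.35 ± 0.05 (adjusted p = 1.5e-08). The count was 21 without array 012 and 18 against the tetracycline vehicle. Saa1, serum amyloid A, ran from 6.36 to 10.92 in AMD 60 livers and from 8.98 to 10.85 in PBS livers, and was not called (-1.56 ± 0.76, adjusted p = 0.27). Of 18 serpins 8 fell and 2 rose. Serpina11 fell by 0.88 ± 0.14. Serpina9 fell by 1.27 ± 0.29 to a mean below the array median, and differed by -0.34 from the tetracycline vehicle (adjusted p = 0.62).

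**Figure D3:**
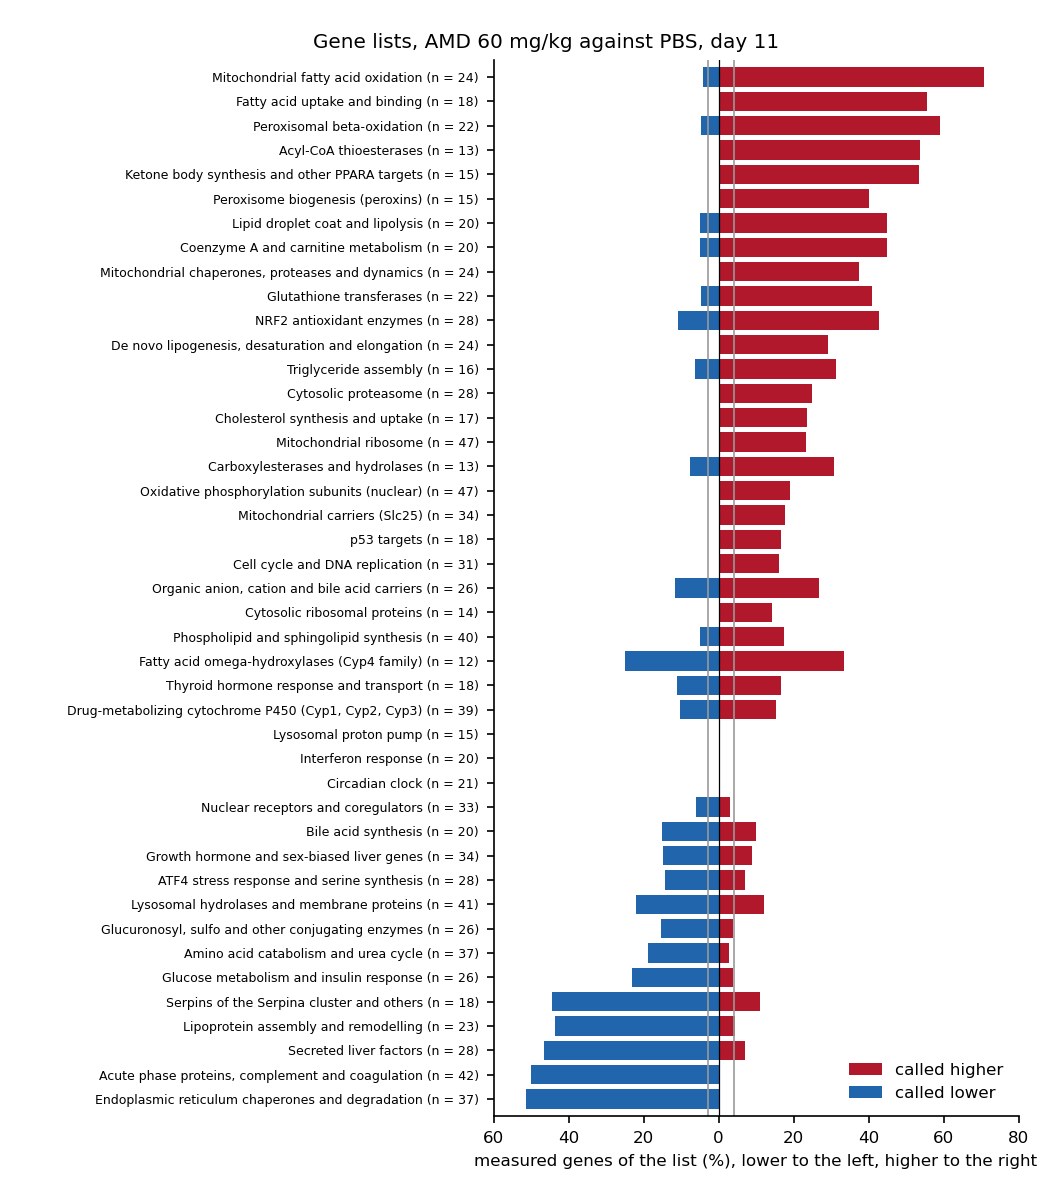
Share of each gene list called higher (red, right of 0) or lower (blue, left of 0) in AMD 60 against PBS livers on day 11 (x axis, percent of measured genes; n beside each name). Grey lines mark 4.24% higher and 2.81% lower over all genes. Fatty acid lists extend right, endoplasmic reticulum, acute phase, secreted and lipoprotein lists left. The lists were chosen with earlier results of these data known.

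Glucose metabolism held 6 falls and 1 rise among 26 genes (median -0.06). Pklr, liver pyruvate kinase, had 5.35, 5.44, 5.23, 5.24 and 5.23 in AMD 60 livers, against 6.13, 6.32, 6.14, 6.50 and 6.10 in PBS livers (-0.94 ± 0.20, adjusted p = 0.00036). Slc37a4, the glucose-6-phosphate carrier, fell by 0.47 and Khk, ketohexokinase, by 0.42, while Pgm1 rose by 0.36. Ppp1r3b, the glycogen-targeting subunit of hepatic protein phosphatase, differed by -1.09 ± 0.36 (adjusted p = 0.044), a call lost when any 1 of 9 arrays was left out. Against the tetracycline vehicle 10 of the list were lower. In amino acid breakdown and the urea cycle 7 of 37 fell and 1 rose (median -0.06), among them Cbs, cystathionine beta-synthase, and Asl, argininosuccinate lyase, at -0.48 each. Hal, histidine ammonia-lyase, fell by 0.40, a call lost without PBS array 002. The call of Cbs was lost without AMD 60 array 031 or PBS array 002.

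Of the nuclear receptors and coregulators 1 of 33 rose and 2 fell. Nr1i2 rose by 0.48 ± 0.13, Hnf4a, the hepatocyte identity factor, fell by 0.36 ± 0.08 and Nr1h3, the oxysterol receptor LXR alpha, by 0.41 ± 0.12. The call of Nr1i2 was lost without PBS array 032, and that of Nr1h3 without AMD 60 array 012 or 031 or PBS array 002 or 020. The median of the list was 0.01. Cell cycle genes rose in 5 of 31 cases (median 0.17), led by the helicase subunits Mcm6 at 0.71 ± 0.19 and Mcm4 at 0.52 and by Gins1 (0.47) and Gins2 (0.32), which work with that helicase. Without AMD 60 array 031, on which Mcm6 was 4.87 against 3.31 to 3.79 on the other AMD 60 arrays, 1 was called. The proteasome rose in 7 of 28 cases (median 0.13), led by the activator Psme1 (0.54) and Psmd3, Psma7 and Psmd14 (0.32 to 0.33), and in 4 without array 031. The mean of the proteasome list was 9.10 on AMD 60 array 062, 8.78 to 8.89 on the other AMD 60 arrays and 8.59 to 8.82 on PBS arrays. None of 21 clock genes was called, but 10 were lower and 1 higher against the tetracycline vehicle. None of 20 interferon genes was called, and 6 were higher against the tetracycline vehicle.

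Further genes with large differences lay outside the lists. Rab30, a small GTPase of the Golgi, rose by 1.90 ± 0.29, with 5.46 to 6.46 in AMD 60 livers and 3.85 to 4.41 in PBS livers (3.74-fold, adjusted p = 8.9e-07). Spc25, a kinetochore subunit, rose by 1.48 ± 0.23, with 6.80 ± 0.26 in AMD 60 livers and 5.32 ± 0.23 in PBS livers. Sdr9c7, a short-chain dehydrogenase, fell by 1.47 ± 0.21 and Rdh16f2, of the same superfamily, by 0.71 ± 0.12. Adgrf1, an adhesion receptor, fell by 1.61 ± 0.31 to a mean below the array median, and Slc41a2, a magnesium carrier, by 1.04 ± 0.28. Neither was called against the tetracycline vehicle (adjusted p = 0.055 for Adgrf1, 0.85 for Slc41a2).

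Markers of other cell types were read beside these results. The tissue's defining gene Alb was at 13.75 to 13.81 in AMD 60 livers and 13.71 to 13.81 in PBS livers (-0.00 ± 0.03). These levels are near the top of the scale (highest value of all arrays 13.87), where a difference may be hidden. All 5 hepatocyte markers were below 0, 2 of them lower without overlap (2.76% over all genes), and 1 was called, Ttr. None of 10 Kupffer cell markers was called, and their mean ran from 5.65 to 6.80 on AMD 60 arrays and from 6.02 to 6.45 on PBS arrays. Of 10 endothelial markers 2 fell, Clec4g by 0.40 ± 0.07 and Fcgr2b by 0.30; their mean was 5.16 to 5.36 on AMD 60 arrays and 5.40 to 5.51 on PBS arrays, without overlap, and 1 to 4 were called when an array was left out. In whole liver, fewer cells of a type and less RNA per cell cannot be told apart. Of 10 stellate markers 2 fell, Reln by 0.37 and Dcn by 0.23, the call of Dcn lost without any 1 of 8 arrays. The erythrocyte marker Alas2, of haem synthesis, fell by 0.69 ± 0.18, with 7.15 to 7.34 on AMD 60 arrays and 7.72 to 8.10 on PBS arrays. Of 2 exocrine pancreas markers 1 fell, the elastase Cela1 (-1.01 ± 0.19, adjusted p = 9.6e-05), and their mean was 4.49 to 4.73 on AMD 60 arrays and 5.05 to 5.23 on PBS arrays. Of 4 periportal markers Hal fell, and their mean was 8.85 to 9.16 on AMD 60 arrays and 9.22 to 9.49 on PBS arrays. The part of these cell types in the results was not tested. None of 9 pericentral or 3 adipose markers was called. All 6 cholangiocyte and 7 of 8 lymphocyte markers were below the array median in both groups.

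AMD 60 array 012 stood apart in neutrophil genes, whose mean over 6 measured markers was 5.91 there, 2.86 to 3.07 on the other AMD 60 arrays and 2.87 to 3.48 on PBS arrays. S100a9, a neutrophil granule protein, was 8.14 on it and 3.28 to 3.91 on the others of its group, against 3.23 to 5.27 in PBS livers. The acute phase mean of array 012 was 10.23 as well, with 9.56 to 9.86 on the other AMD 60 arrays and 9.97 to 10.39 on PBS arrays. Array 062 was highest in interferon genes (mean 6.41, other AMD 60 arrays 5.17 to 5.60, PBS arrays 5.11 to 5.46) and in Kupffer cell markers. Without array 012 the count of called genes was 1091, and without array 062 it was 978, against 1161 with all arrays. Leaving out any other array of these groups lowered the count too, to 905 without AMD 60 array 031 and 1094 without AMD 60 array 033. These totals therefore cannot separate the part of arrays 012 and 062 from the effect of a smaller group.

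The step between 20 and 60 mg/kg was large. On day 11 amiodarone at 60 mg/kg differed from 20 mg/kg at 1171 genes (7.11%), 624 higher (3.79%) and 547 lower (3.32%). Against the shared PBS arrays, 20 mg/kg was called at 53 genes (0.322%), 43 higher (0.261%) and 10 lower (0.0607%), and 6.7 mg/kg at none by limma. At 6.7 mg/kg 776 of the 16464 genes had an unadjusted p under 0.05, no more than that cutoff alone would pass by chance. Cyp4a31 had mean levels of 5.70 with PBS, 5.39 at 6.7 mg/kg, 5.60 at 20 mg/kg and 10.58 at 60 mg/kg, so its whole rise lay above 20 mg/kg (4.98 ± 0.29 between the upper doses, adjusted p = 1.5e-24). Mogat1 behaved alike, with 2.74, 2.95, 2.95 and 5.42 over the same 4 groups. Ehhadh (9.36, 9.26, 9.82 and 12.19) and Vnn1 (7.13, 7.02, 7.39 and 10.30) had the greater part of their rise there too. Serpina12 fell in the same step, with 9.18, 9.08, 8.78 and 6.80.

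Other genes had different profiles over the doses. Pltp had 6.26 with PBS, 6.56 at 6.7 mg/kg, 7.23 at 20 mg/kg and 8.18 at 60 mg/kg, called at 20 mg/kg (0.98, adjusted p = 0.034) and again between the upper doses (0.95 ± 0.23), the last call lost without AMD 20 array 065. Me1 (8.94, 9.04, 9.72 and 10.11) was called at 20 mg/kg, and its difference between the upper doses was 0.39 ± 0.19 (adjusted p = 0.27). Calr had 9.32, 9.28, 8.88 and 8.77 over the 4 groups, and differed by -0.43 at 20 mg/kg (adjusted p = 0.070) and by -0.11 ± 0.12 between the upper doses (adjusted p = 0.71). Pklr had 6.24 with PBS, 6.61 at 6.7 mg/kg, 6.95 at 20 mg/kg and 5.30 at 60 mg/kg. It differed from PBS by 0.72 at 20 mg/kg (adjusted p = 0.072) and was lower at 60 than at 20 mg/kg by -1.66 ± 0.20 (adjusted p = 6.7e-10). Gstp3, with 6.56, 6.95, 7.13 and 5.82, was also highest at 20 mg/kg, where its difference from PBS was 0.57 (adjusted p = 0.12), and fell by 1.31 ± 0.18 between the upper doses.

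**Figure D4:**
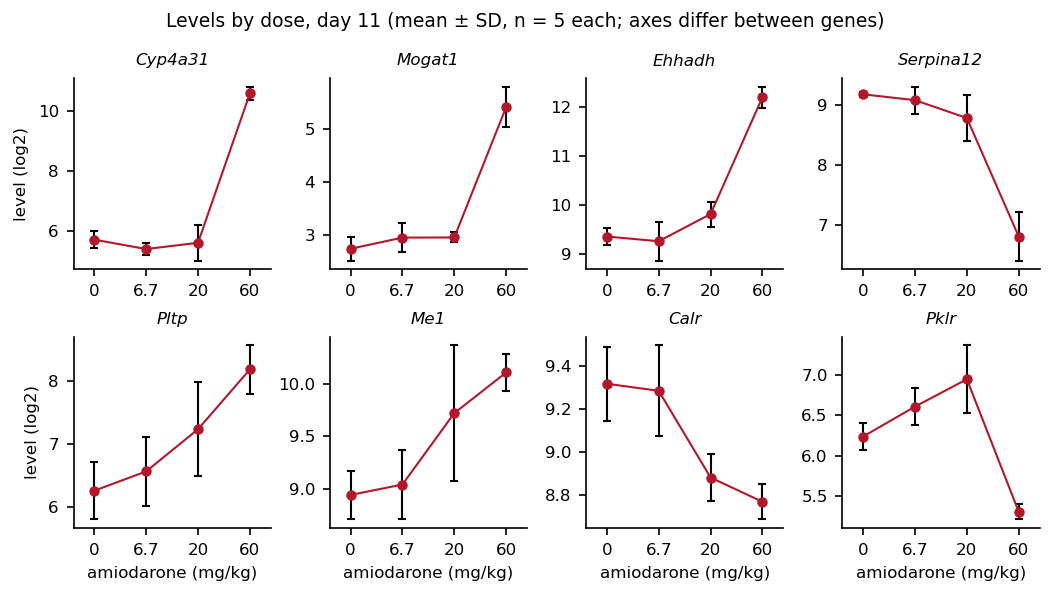
Mean log2 level (y axis, ± SD, n = 5 arrays a group) of 8 genes on day 11 with PBS (0) and amiodarone at 6.7, 20 and 60 mg/kg (x axis, categories). Cyp4a31, Mogat1 and Serpina12 change between 20 and 60 mg/kg, Me1 and Pltp already at 20 mg/kg, and Pklr is highest at 20 mg/kg (6.95) and lowest at 60 mg/kg (5.30).

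Day 4 shares no array with day 11 and so gives a separate reading. At 60 mg/kg 1022 genes were called on day 4 (6.21%), 660 higher and 362 lower, and 131 on day 1 (0.796%), each against PBS of that day. Of the 1161 genes called on day 11, 546 were called in the same direction on day 4 (47.0% of the day 11 calls and 53.4% of the day 4 calls) and none in the opposite direction. The sign was the same in 1093 of them (94.1%, against 62.0% of all genes). No gene was called for a difference between the day 11 and day 4 effects by limma, and the smallest adjusted p was 0.38. Of the 16464 genes, 967 had an unadjusted p under 0.05, somewhat more than that cutoff alone would pass by chance. Ehhadh rose by 2.06 on day 1, 2.68 on day 4 and 2.84 on day 11, and Cyp4a14 by 4.28, 5.02 and 5.21. Cd36 differed by 0.73 on day 1 (adjusted p = 0.22), then rose by 2.23 on day 4 and 2.66 on day 11. Mogat1 likewise differed by 0.47 on day 1 (adjusted p = 0.21) and rose by 2.41 on day 4. Serpina12 differed by -0.41 on day 1 (adjusted p = 0.89) and fell by 2.33 on day 4.

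Counts per list were close on both days for mitochondrial fatty acid oxidation (17 higher on day 11, 16 on day 4), peroxisomal beta-oxidation (13 higher on each) and acute phase genes (21 lower on day 11, 20 on day 4). They were lower on day 11 for cholesterol synthesis and uptake (4 of 17, against 11 on day 4), the proteasome (7 of 28, against 18) and the cell cycle (5 of 31, against 17). The medians of these 3 lists were 0.46, 0.13 and 0.17 on day 11, against 0.67, 0.30 and 0.45 on day 4. No gene of the lists was called for the difference between days.

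VPA 500, a second steatosis drug of the series with PBS as its vehicle, differed from AMD 60 on day 11 at 1327 genes (8.06%), 565 higher with amiodarone (3.43%) and 762 lower (4.63%). Both groups had Cyp4a14 high, at 12.63 ± 0.09 with amiodarone and 12.30 ± 0.11 with valproic acid, a difference of 0.33 ± 0.75 with a 95% interval of -1.15 to 1.82. Cyp4a10 differed by 0.46 (interval -0.19 to 1.12). Cyp4a31 was higher with amiodarone, at 10.58 ± 0.22, than with valproic acid, at 8.17 ± 0.63 (2.41 ± 0.29, adjusted p = 1.1e-09). Mogat1 was at 5.42 ± 0.38 with amiodarone and 3.19 ± 0.26 with valproic acid (2.23 ± 0.14, adjusted p = 1.5e-21). Acot1 (2.08), Vnn1 (1.77), Pex11a (1.56 ± 0.16) and Pdk4 (1.53) were also higher with amiodarone, as was Plin2 by 1.02 ± 0.13. Plin2 averaged 10.74 ± 0.22 with valproic acid, where PBS livers had 10.88 ± 0.26.

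Cyp2b10 was lower with amiodarone, at 4.99 ± 0.50, than with valproic acid, at 6.69 ± 0.49 (-1.70 ± 0.33, adjusted p = 0.00015). Cyp39a1 was at 5.49 ± 0.54 with amiodarone and 7.56 ± 0.23 with valproic acid (-2.07 ± 0.19), and Slc22a7 at 5.63 ± 0.60 and 7.19 ± 0.65 in the same order (-1.56 ± 0.35). Rdh16f2 and Ggh, the folate hydrolase, each differed by -1.20, Slc3a1, a cystine carrier subunit, by -1.23, and Nnmt by -1.44. Spc25 (2.05 ± 0.23) and G0s2 (1.74 ± 0.44) were higher with amiodarone. Serpina12 was low in both, at 6.80 ± 0.40 with amiodarone and 5.82 ± 0.68 with valproic acid (interval of the difference 0.21 to 1.76, adjusted p = 0.12). Among the 37 amino acid and urea cycle genes 27 were lower with amiodarone than with valproic acid and 1 higher, where, against the same PBS arrays, amiodarone called 7 lower and valproic acid 22 higher. Over all genes valproic acid against PBS called 5.89% higher and 3.14% lower. Of the 37 endoplasmic reticulum genes 2 were lower with amiodarone than with valproic acid and none higher. Over all genes 4.63% were lower and 3.43% higher in that comparison. Against the same PBS arrays valproic acid called 12 of the 37 lower and 1 higher (median -0.25).

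**Figure D5:**
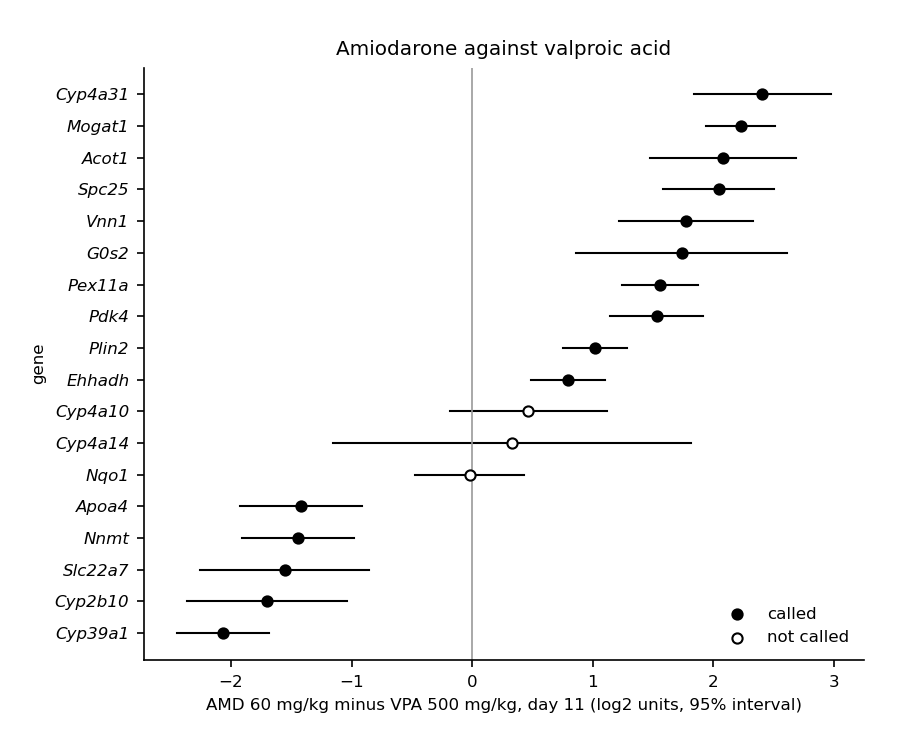
Difference between AMD 60 and VPA 500 on day 11 (x axis, log2 units, with 95% intervals from limma) for 18 named genes, sorted by size. Filled points were called; Mogat1 and Cyp4a31 lie above 2, Cyp39a1 below -2, and the intervals of Cyp4a14, Cyp4a10 and Nqo1 include 0.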

How the data were processed

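Whole-liver RNA of the mice was measured on Affymetrix arrays. The authors deposited log2 values for 95 arrays in 21 groups, made by RMA per the submitters' processing notes. The version and settings are not given in the sources used here. Of 17306 probe sets, 16464 had 1 symbol and were used, and 842 had none and were left out. Groups came from the titles, which give each array a sample number and no pairing.

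From the deposited values 1 limma fit (version 3.58.1, R 4.3.3) was made with a mean per group and no covariates. The Benjamini-Hochberg adjustment ran over all 16464 genes, and a gene was called at an adjusted p under 0.05. Errors of differences are standard errors of that fit (given as ± after a difference), and ± after a level is the SD over arrays. The 95% intervals come from the same fit. With 5 arrays a group, the number of arrays limits the precision. Promoter windows were read from a RefSeq table with Python 3.11.15. The fit was also run on simulated data with known changes.

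Members and gene lists were chosen with earlier results of these data known. How far that choice sets their shares of calls apart from those over all genes was not tested. Genes were named by rule: the 15 largest rises and 15 largest falls without overlap, the 10 smallest p-values, any measured member of a list with its 4 largest called members first, and the largest called differences by dose, day and compound. 1 measured gene that met the rule is not reported here. Alternatives were array weights, blocks of 24 sample numbers, median centring, renewed quantile normalization, no dim genes, a variance trend, only the arrays compared, the tetracycline vehicle, and each array left out.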

Additional observations from a re-analysis of the deposited data

Results flagged for a closer look

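A single array lay far from the 4 others of its group (Dixon's ratio above 0.71) in 22 of 442 pairs of a named gene and a group, and chance flags about 1 in 20. AMD 60 array 012 and PBS array 032 held 5 of them each. On AMD 60 array 012 the S100a9 level of 8.14 and the Tff3 level of 6.82 were above the other AMD 60 arrays. So were Acaa1b, the peroxisomal thiolase, at 12.97 and Cfi at 11.93, while Cyp39a1 at 4.55 was below them. Among the other AMD 60 arrays, array 033 was apart in Cyp4a12a (10.69), Ttr (13.15) and Ugp2 (9.54) and array 062 in Pex11a (10.76).

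PBS array 032 was highest of its group in Pdk4 (3.49), Fitm1 (6.53), Gstm4 (7.56) and Srxn1 (4.60), all of which were higher still in AMD 60 livers. PBS array 073 was apart in Cyp2u1 (5.42), Lect2 (9.64) and S100a9 (5.27), PBS array 090 in Angptl8 (7.08), Dnajb11 (6.79) and Elovl5 (10.76), PBS array 020 in Ndufa5 (9.45), PBS array 002 in Hadha (8.80) and PBS array 032 in Ctsf (4.86).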

How the results depend on the processing

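The 1161 calls became 905 (without AMD 60 array 031) to 1094 when 1 array was left out, 543 to 671 of them higher, 344 to 444 lower and 72 to 86 over 2-fold. They were 881 when only the 10 arrays compared were fitted, 1304 against the tetracycline vehicle and 1128 to 1349 under the other processing. Of the 1161, 495 were called in each of the 18 alternatives that tested them, where 1 alternative did not test dim genes. Against the tetracycline vehicle 10 of the 1161 changed sign. The 1171 genes that differed between 60 and 20 mg/kg became 907 to 1054 with 1 array left out and 1038 to 1463 otherwise. The 1327 that differed from VPA 500 became 1047 to 1261 and 1127 to 1647. The difference between the day 11 and day 4 effects had 0 calls in limma, also with any array left out, and 1 call, a lower gene, when only the arrays compared were fitted (967 genes at an unadjusted p under 0.05 in the fit to all arrays). The cause was not tested. Of 203 named genes called against PBS, 122 were called in every alternative that tested them, 31 lost their call only against the tetracycline vehicle and 42 when some array was left out. None of the named genes changed sign with a call. No paired analysis was possible because the groups share no sample number.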

Other observations

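Coenzyme A and carnitine metabolism, a list that shares Vnn1, Nudt7 and Crat with groups described above, rose in 9 of 20 cases and fell in 1 in AMD 60 livers against PBS livers on day 11 (median 0.35). Pank1, the pantothenate kinase that starts coenzyme A synthesis, stood at 10.51 ± 0.09 in AMD 60 livers and 10.02 ± 0.08 in PBS livers (SD, n = 5 each), a rise of 0.49 ± 0.07 (SE). Vnn3, a further pantetheinase, rose by 0.52 ± 0.14 but differed by 0.23 from the tetracycline vehicle (adjusted p = 0.41). Coasy, which ends that synthesis, rose by 0.35 ± 0.07, and Aldh9a1, a dehydrogenase of carnitine synthesis, by 0.48 ± 0.07. In Pank1, Coasy and Aldh9a1 no AMD 60 array overlapped a PBS array.

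Among 13 carboxylesterases and related hydrolases 4 rose and 1 fell (median 0.16). Ces1e rose by 0.82 ± 0.15, with 9.52 ± 0.23 in AMD 60 livers and 8.70 ± 0.31 in PBS livers. Ces1g (0.63 ± 0.13) and Ces2a (0.44 ± 0.09) rose as well, though Ces1g differed by 0.18 from the tetracycline vehicle (adjusted p = 0.55). Ephx2, the soluble epoxide hydrolase of lipid epoxides, rose by 0.43 ± 0.06, with 12.00 ± 0.06 in AMD 60 livers and 11.57 ± 0.02 in PBS livers. Ces1c, the plasma carboxylesterase of the mouse, fell by 0.27 ± 0.07, with overlapping groups, a call lost when only the 10 arrays were fitted. Of 18 p53 targets 3 rose and none fell (median 0.12). They were Gadd45b, a stress-response protein (0.98 ± 0.13), the death receptor Fas (0.44 ± 0.11) and the cyclin Ccng1 (0.37 ± 0.07), and all 3 were called against the tetracycline vehicle too.

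Of 34 mitochondrial carriers of the Slc25 family 6 rose and none fell (median 0.10). Beside Slc25a20 they were led by Slc25a34 (0.55 ± 0.15), Slc25a10, the dicarboxylate carrier (0.48 ± 0.09), and Slc25a42, which imports coenzyme A (0.42 ± 0.12). Without AMD 60 array 031 or 062 the count was 4. Of 14 cytosolic ribosomal proteins 2 rose, Rpl15 by 0.32 and Rpl14 by 0.28, and the call of Rpl14 was lost without any 1 of 7 arrays.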
